A study of Mus musculus with 22 samples.

Results

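The small noncoding RNA genes Gm25360, Gm25939, Scarna3b and AF357399 were followed through both parts of a study of mouse cerebellar Purkinje cells (PCs) that lack Tsc1. These 4 loci, of 66494 in each deposited table, were chosen on values of translating ribosome affinity purification (TRAP) libraries without rapamycin. The study listed 3 of them from its comparison of mutant with control TRAP, and AF357399 from a list that sets that comparison against sorted cells, so the difference without rapamycin is a description and carries no test. A locus is an assembled transcription unit, and its gene name was taken from the supplementary files of the study, in which 1985 loci carry a reference transcript. All libraries came from C57BL/6 mice. The mutants were homozygous for a floxed Tsc1 allele (Tsc1 fl/fl) and the controls carried the wild-type allele (Tsc1 +/+). L7Cre, which the Pcp2 promoter drives in PCs, was carried by mutants and, in TRAP, by controls too. For the sorted controls the study's methods name L7Cre, while its account of the sort names L7GFP without it, so whether they carried Cre was not settled here. In TRAP, a green fluorescent ribosomal protein (EGFP-RPL10A) that Cre switches on was pulled down from whole cerebellum, after nuclei had been spun out of the lysate, and each library came from the cerebellum of 1 animal. There were 3 TRAP libraries in each of 4 groups: control, mutant, control with rapamycin and mutant with rapamycin, where rapamycin is an inhibitor of the kinase mTOR. The labels give no age, dose or schedule for these libraries. A second table holds total RNA of PCs collected by fluorescence-activated sorting, from 5 mutant and 5 control libraries of mice that also carried L7GFP, at P21 or P42. In these bulk samples, fewer cells of a type and less RNA per cell cannot be told apart.

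Small nuclear RNAs (snRNAs) are the RNA cores of the spliceosome, and U2 snRNA is the one that pairs with the intron branch site. Small nucleolar RNAs (snoRNAs) guide chemical modification of ribosomal RNA, and small Cajal body RNAs (scaRNAs) do the same for snRNAs. None of these RNAs is translated, and most are not polyadenylated.

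Gm25360 and Gm25939 are annotated as snRNAs and are near-identical copies of U2. Their sequences are shown because the fragments of a short RNA with copies are hard to place. The capitals mark the only bases at which they differ, and sequences are those of the GENCODE transcripts of GRCm38, written 5′ to 3′.
Gm25360: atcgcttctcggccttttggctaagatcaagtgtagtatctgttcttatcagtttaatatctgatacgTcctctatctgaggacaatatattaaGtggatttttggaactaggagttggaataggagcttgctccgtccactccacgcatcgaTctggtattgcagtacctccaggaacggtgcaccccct
Gm25939: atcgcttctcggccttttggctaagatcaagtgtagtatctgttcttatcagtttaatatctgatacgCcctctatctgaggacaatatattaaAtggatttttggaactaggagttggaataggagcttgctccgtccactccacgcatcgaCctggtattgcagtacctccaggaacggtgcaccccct
Both are 191 bases long and share 188 of them (98.4%). The substitutions from Gm25360 to Gm25939, counted from the 5′ end, are T69C, G95A and T154C. Both hold GTAGTA, the sequence with which U2 recognizes the branch site, at position 33. At any position, 51 of 1383 annotated snRNA transcripts hold it (3.69%, searched on the transcript strand), these copies among them. Gm25360 lies at chr1:72226240-72226430 on the plus strand, outside any other annotated gene. Gm25939 lies 28577 bases further on, at chr1:72255008-72255198 on the plus strand, in an intron of the long noncoding RNA gene D230017M19Rik. Of 6082 annotated small RNA transcripts, 12 others were within 10% edits of each copy, among them Rnu2-10, at 4 edits from Gm25360 and 3 from Gm25939. The level of either copy is therefore uncertain, since the quantification could divide fragments among the copies.

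Scarna3b is a scaRNA of 139 bases at chr12:80391613-80391751 on the minus strand, in an intron of Dcaf5. AF357399 is a snoRNA of 125 bases at chr7:28351508-28351632 on the plus strand, in an intron of Rps16, which encodes a protein of the small ribosomal subunit. The capitals in Scarna3b mark the 65 bases, positions 75 to 139, that the annotation also assigns to the microRNA gene Mir1843a. The annotated transcript CT030161.1 overlaps it on the same strand as well, so that fragments could belong to any of these genes.
Scarna3b: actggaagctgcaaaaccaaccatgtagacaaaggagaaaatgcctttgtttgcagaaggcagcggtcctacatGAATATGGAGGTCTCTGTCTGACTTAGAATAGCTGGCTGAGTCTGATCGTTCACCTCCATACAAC
AF357399: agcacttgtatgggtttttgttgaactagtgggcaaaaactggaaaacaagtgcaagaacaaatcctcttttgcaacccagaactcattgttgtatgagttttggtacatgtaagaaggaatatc
Their nearest annotated relatives were further away than those of the U2 copies. Scarna3a shared 85.6% with Scarna3b, and Gm23320 shared 78.4% with AF357399.

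TRAP libraries were shallow and 2 of them stood apart. They held 2.47 to 6.38 M fragments, against 43.3 to 86.3 M in sorted libraries, and every mutant library (2.47 to 3.41 M) was below every control library (4.28 to 6.38 M). The first control library with rapamycin had 7937 loci above 0, the fewest of the 12, and its 10 highest loci took 72.6% of its fragments. Small RNAs outside the 5S ribosomal RNA class gave 251 fragments per M fragments of the library (FPM) there, against 3372 and 3547 in the other 2 libraries of its group. In the mutant libraries, treated or not, they gave 187 to 1936 FPM, so this low value is apart from its own group and not from all of TRAP. The third untreated mutant library had the most loci above 0 (19626) and its 10 highest loci took 40.5%, against 58.3% to 72.6% elsewhere in TRAP. One fragment was worth 0.303 normalized units in it and 0.557 to 1.96 in the other untreated libraries, so its level depends on the scaling. Of 14 PC markers, 13 or 14 were detected in every TRAP library. The summed PC markers reached 11117 FPM in that mutant library, against 1786 to 3413 in all other TRAP libraries. Those of astroglia (4 of 7 measured) reached 3924 there, against 217.9 to 580.8 in all control TRAP libraries. In the other untreated mutants they were 602.2 and 527.7. The measured markers of microglia (17.9) and interneurons (35.3) were also highest in the third untreated mutant library. The part of these marker levels in the results below was not tested. Tsc1 itself was not analysed here, since no locus carries its name, and so it gives no check of the labels.

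Without rapamycin, all 4 RNAs were lower in the mutants in normalized values, which are fragment counts divided by the authors' size factor of each library. Gm25939, the more abundant U2 copy, had normalized values of 388.1, 151.8 and 371.9 in the controls and of 37.3, 42.2 and 38.2 in the mutants. Gm25360 had 76.6, 44.5 and 100.8 in the controls and 7.85, 7.53 and 21.5 in the mutants. Neither U2 copy had a mutant library that reached the lowest control. Scarna3b had normalized values of 48.5, 28.2 and 64.0 in the controls and 1.96, 3.01 and 10.6 in the mutants. AF357399, the least abundant, had 9.36, 3.76 and 35.1 in the controls and 0, 0 and 1.82 in the mutants. The groups did not overlap for these 2 RNAs either, and mutant library 3 was the highest mutant for 3 of the 4 RNAs, all but Gm25939. Behind the values of mutants 1 and 2 lay 4 and 5 fragments of Gm25360 and 1 and 2 fragments of Scarna3b.

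**Figure D1:**
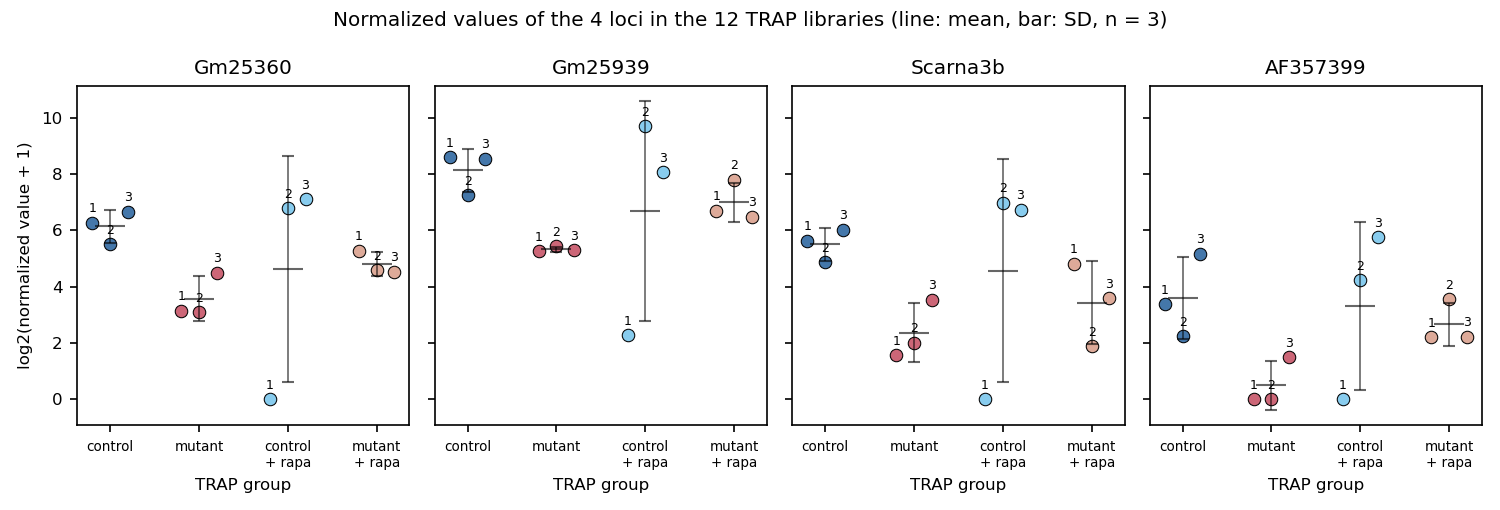
Each point is the log2(normalized value + 1) of a locus in one TRAP library, numbered by replicate, with the group mean as a line and the SD as a bar (n = 3). The untreated mutants lie below the untreated controls for all 4 loci, and control library 1 with rapamycin (rapa) lies at 0 for 3 loci and at 2.27 for Gm25939, below the other 2 of its group.

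On the log2(value + 1) scale, which understates changes of low values, the difference between mutant and control was -2.57 for Gm25360 (SE 0.53), -2.81 for Gm25939 (SE 0.45), -3.14 for Scarna3b (SE 0.60) and -3.10 for AF357399 (SE 0.80), with n = 3 per group. In this comparison 98 of 9658 loci (1.01%) were lower with a limma p under 0.01 and a fold above 2. All 4 RNAs were among them, on values that their choice had used. None of the 4 passed these thresholds with values scaled to equal totals, nor with all 4 TRAP groups in one fit, where the differences were the same and the spread was shared. The mutant libraries lay entirely below the controls at 658 loci (6.81%).

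The groups overlapped when the same fragments were expressed as FPM. Gm25939 then stood at 93.0, 42.3 and 104.7 FPM in the controls and at 7.08, 8.20 and 44.4 in the mutants. Gm25360 stood at 18.4, 12.4 and 28.4 in the controls and at 1.49, 1.46 and 25.0 in the mutants. In both, mutants 1 and 2 were below every control while mutant 3 lay among the controls. The same held for Scarna3b, with 12.3 FPM in mutant 3 against 7.86 to 18.0 in controls, and for AF357399, with 2.11 against 1.05 to 9.87. None of the 4 RNAs had all mutants below all controls on this scale, where 44 of 9658 loci (0.456%) did. With values scaled to equal totals the 4 differences were -2.15, -2.41, -2.67 and -2.55, while the median of all loci shifted from 0.07 to 0.47. Without mutant 3 they were -3.03, -2.79, -3.72 and -3.60 in normalized values.

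**Figure D2:**
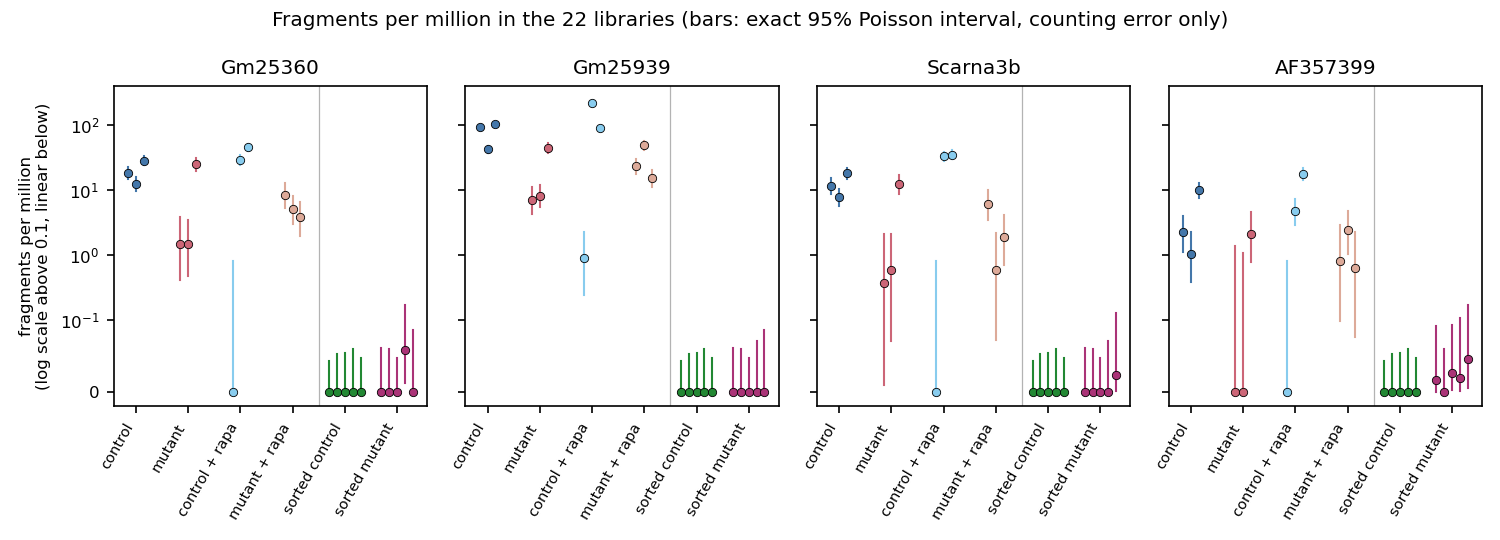
Fragments per M fragments (FPM) of each locus in each of the 22 libraries, with exact 95% Poisson intervals that cover counting error only; the axis is logarithmic above 0.1 and linear below. The third untreated mutant library lies among the controls, and the sorted libraries lie at or near 0.

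The 2 U2 copies have equal lengths, so length does not enter a comparison of their levels, but the division of fragments between near-identical copies does and was not tested. Gm25939 exceeded Gm25360 in every TRAP library, with 1.77 to 9.71 fragments for each fragment of Gm25360 in the 11 libraries where Gm25360 was above 0. This ratio was 3.41 to 5.07 in untreated controls and 1.77 to 5.60 in untreated mutants, so that it overlapped between the groups. Per 100 bases, Scarna3b had a median of 8.37 FPM in the untreated controls and AF357399 had 1.80, against 48.7 for Gm25939 and 9.61 for Gm25360. The ranges of Scarna3b (5.65 to 13.0) and Gm25360 (6.49 to 14.9) overlapped, while Gm25939 was above all others (22.1 to 54.8).

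Mutants and controls that both received rapamycin provide libraries that did not enter the choice of the 4 RNAs. Gm25939 had normalized values of 3.83, 833.5 and 267.0 in the controls and 103.1, 222.4 and 88.6 in the mutants. Gm25360 had 0, 110.5 and 137.2 in the controls and 38.0, 22.9 and 22.1 in the mutants. Control library 1 was below every mutant for both U2 copies, and controls 2 and 3 were above every mutant. Scarna3b had 0, 125.5 and 105.8 in the controls and 27.1, 2.695 and 11.1 in the mutants. AF357399 had 0, 17.7 and 53.5 in the controls and 3.62, 10.8 and 3.69 in the mutants. For all 4 RNAs the range of the control group thus enclosed that of the mutants. At 384 of 8728 loci (4.4%) the mutants lay entirely below the controls in normalized values, and in FPM they did so at 913 (10.5%).

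With all 6 libraries none of the 4 RNAs passed the thresholds, where 107 of 8728 loci (1.23%) did, and none had an unadjusted limma p under 0.05, where 480 loci (5.5%) did. The difference between mutant and control was 0.16 for Gm25360 (SE 1.88, limma adjusted p = 0.990) and 0.32 for Gm25939 (SE 1.85, limma adjusted p = 0.981). It was -1.14 for Scarna3b (SE 1.96, limma adjusted p = 0.915) and -0.67 for AF357399 (SE 1.47, limma adjusted p = 0.943). These standard errors leave differences as large as those without rapamycin undetectable. The sign for Gm25360 and Gm25939 turned with equal totals, to -0.25 and -0.10.

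Without control library 1, all 4 differences were negative, as were those of 3874 of 9022 loci (42.9%). Gm25360 was lower by a difference of -2.16 (SE 0.53, limma adjusted p = 0.275), which passed the thresholds of p under 0.01 and fold above 2. Scarna3b had -3.43 (SE 0.94, limma adjusted p = 0.326), AF357399 had -2.33 (SE 0.76, limma adjusted p = 0.410) and Gm25939 had -1.89 (SE 0.75, limma adjusted p = 0.519), none of which passed. Thus 1 of 4 RNAs passed, against 300 of 9022 loci (3.33%), of which 54 were lower (0.599%). All 4 had an unadjusted limma p under 0.05, as did 863 loci (9.57%). The 3 mutants lay below the 2 remaining controls for all 4 RNAs, in normalized values and in FPM, as they did at 1119 loci (12.4%) and 2330 loci (25.8%). Control library 1 was below every mutant for all 4 RNAs, so leaving it out fixed this direction and separation in advance. The p values of this fit are thus a description. In the order Gm25360, Gm25939, Scarna3b and AF357399, the differences without control library 2 instead were 1.24, 1.83, 0.06 and -0.22. Without control library 3 they were 1.40, 1.01, -0.06 and 0.55. No adjusted p of these 4 RNAs was under 0.05 in either fit.

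**Figure D3:**
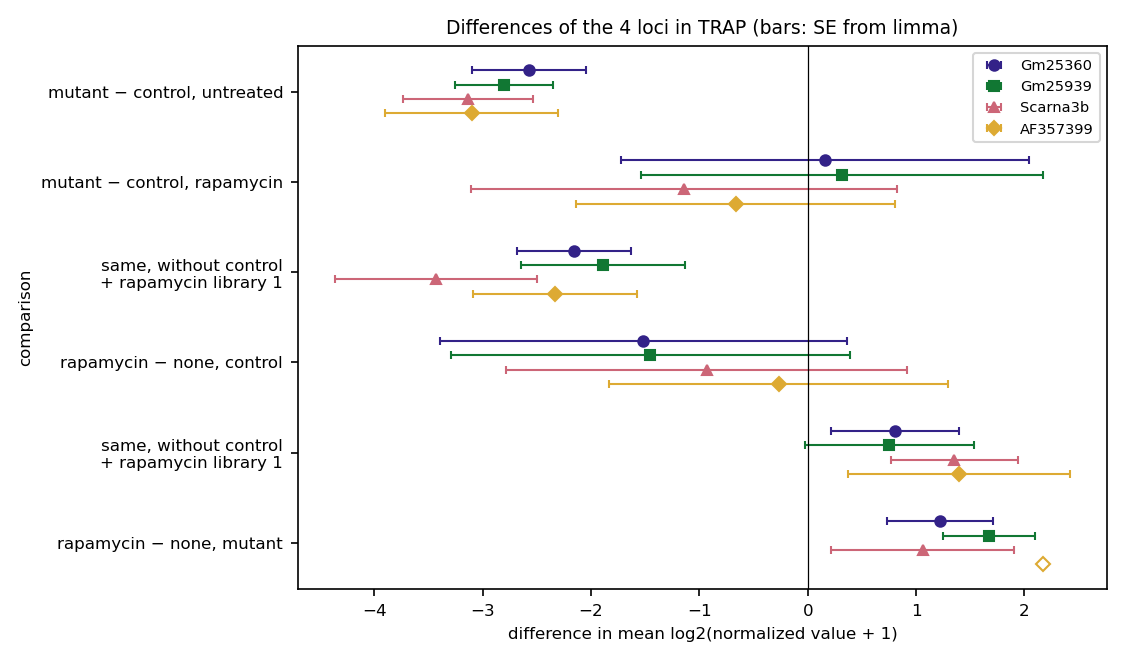
Differences in mean log2(normalized value + 1) for the 4 loci in each TRAP comparison, with the SE from limma as bars; the open symbol is AF357399, which did not pass the filter in the last comparison. Leaving out control library 1 with rapamycin moved mutant minus control under rapamycin from between -1.14 and 0.32 to between -3.43 and -1.89. It also turned the sign of rapamycin minus none in controls.

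The effect of rapamycin within each genotype shares libraries with the choice of the 4 RNAs and is therefore given as values. In controls, rapamycin minus none was -1.51 for Gm25360 (SE 1.87), -1.45 for Gm25939 (SE 1.84), -0.93 for Scarna3b (SE 1.85) and -0.27 for AF357399 (SE 1.56). Without control library 1 with rapamycin the same differences were 0.80, 0.75, 1.35 and 1.40, so that this library set the direction. In mutants, the difference was 1.22 for Gm25360 (SE 0.49), 1.67 for Gm25939 (SE 0.42) and 1.06 for Scarna3b (SE 0.84). The group mean of AF357399 was higher by 2.17, but this RNA was under the filter on low values. The treated mutants lay entirely above the untreated ones for both U2 copies and for AF357399, and not for Scarna3b. Among loci past the filter, which left AF357399 out, they did so at 716 of 9664 (7.41%). No RNA was so separated in FPM, where 7 loci (0.0724%) were, since mutant 3 without rapamycin reached 25.0 for Gm25360 and 44.4 for Gm25939, and the treated mutants reached 8.49 and 49.0. With equal totals the differences were 0.44, 0.89 and 0.28, while the median of all loci shifted from -0.04 to -0.81.

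Sorted PCs held almost no fragments of these RNAs although their libraries were deeper. Per the methods these were made with the SmartSeqv4 kit, and the part of the library chemistry in the low counts was not tested. Gm25939 had 0 fragments in all 10 libraries. Gm25360 had 3 fragments in mutant library 61 and 0 in the other 9. Scarna3b had 1 fragment in mutant library 74 and 0 in the other 9. AF357399 had 1, 0, 2, 1 and 2 fragments in mutants 103, 167, 191, 61 and 74, and 0 in all 5 controls, of which 144a and 144b are numbered as one animal. Mutants 103, 61 and 74 carry a submission number that no control carries, and controls 144b, 45 and 48 one that no mutant carries. Genotype and submission are thus partly confounded in the sorted libraries, and all fragments of Gm25360 and Scarna3b came from those mutants. A count of 0 allowed up to 0.0348 to 0.0693 FPM in these libraries. None of the 4 RNAs passed the filter on low values, so none was tested, and 242 of 16455 loci (1.47%) passed the thresholds in that comparison. AF357399 was chosen partly on sorted values, in a list that sets TRAP against sorted levels, and so its sorted values are a description. TRAP and sorted tables were normalized separately, and per the methods the TRAP libraries were made at a core facility, so these levels are set side by side only.

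AF357399 lies in an intron of Rps16, whose own locus was measured beside it. Rps16 had log2(value + 1) means of 4.28 ± 0.48 (SD, n = 3) in untreated controls and 4.81 ± 0.24 in untreated mutants. Its difference was 0.53 (SE 0.38) there, against -3.10 for AF357399. Both loci were named only in the list that sets TRAP against sorted cells, which used these values, so this contrast is a description. Under rapamycin the difference of Rps16 was -0.92 (SE 0.74, limma adjusted p = 0.873), against -0.67 for AF357399. Without control library 1 the 2 differences were -1.40 and -2.33. In sorted PCs, Rps16 had 12.3 to 27.8 FPM while AF357399 had at most 0.0462.

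The other small noncoding RNA loci of the supplementary files were followed for comparison. There were 32 outside the 5S ribosomal RNA class: 10 snRNAs, 13 snoRNAs, 1 scaRNA, 4 misc_RNAs and 4 microRNAs. The study listed 6 of 10 snRNAs, 2 of 13 snoRNAs and 1 of 4 microRNAs from its comparison of these same TRAP libraries. The rest came from the list that sets that comparison against sorted cells, which used the same TRAP values. The direction of the 32 without rapamycin is therefore not independent evidence. In that comparison 19 of the 32 passed the filter, and all 19 were below 0, as were 4381 of 9658 loci (45.4%). The 19 had a median of -1.75, against 0.07 over all loci, and 10 passed the thresholds, where 98 loci (1.01%) passed as lower. All 33 loci of 5S and other ribosomal RNA were below 0 too, with a median of -2.14, and 31 passed. The study had listed 31 of the 33 from the same comparison. Under rapamycin, 19 of the 32 passed the filter, with a median difference of -1.04, against 0.32 over all loci tested, and none passed the thresholds. Without control library 1 the median was -2.19, against 0.17 over all loci. All 19 were negative, as were 3874 of 9022 loci (42.9%). Gm25541, an snRNA, was the 1 that passed, with -2.95 (SE 0.59, limma adjusted p = 0.168), where 54 loci (0.599%) passed as lower. Among snRNAs with all 6 libraries, the lowest was Gm25189 at -1.82 (SE 0.70, limma adjusted p = 0.869) and the highest Gm24305 at 0.59 (SE 1.33, limma adjusted p = 0.944). Among snoRNAs, the lowest was Rnu3a, the U3 RNA of ribosomal RNA processing, at -1.61 (SE 0.54, limma adjusted p = 0.846), and the highest was Snord13 at 0.76 (SE 1.89, limma adjusted p = 0.946). Only 1 locus passed the filter in each of the other classes: the scaRNA Gm23751 had -2.13 (SE 1.62), the Y RNA Rny3 had -0.69 (SE 1.47) and the microRNA Mir3068 had -2.77 (SE 1.43). The 33 loci of 5S and other ribosomal RNA had a median of -1.10 with all 6 libraries and -1.72 without control library 1, and none passed the thresholds in either fit.

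**Figure D4:**
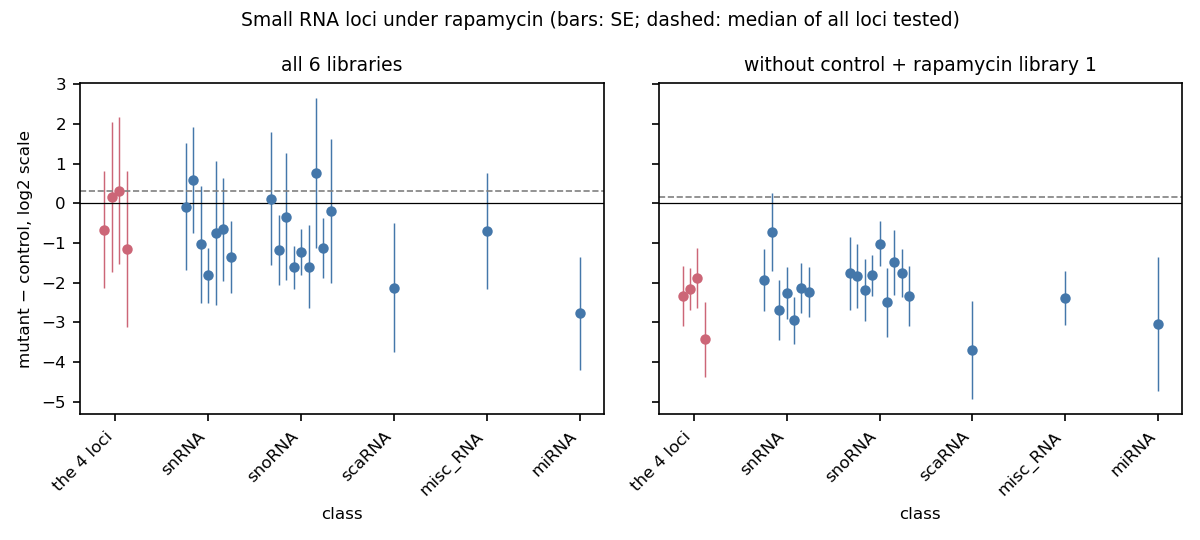
Mutant minus control under rapamycin on the log2(value + 1) scale for the 4 loci and for the other small RNA loci past the filter, by class, with SE bars and the median of all loci tested as a dashed line. With all 6 libraries the values lie on both sides of 0, and without control library 1 they all lie below it.

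For each RNA, the 3 loci with the most similar profiles over the 12 TRAP libraries were taken from 939 named loci. Gm25360 followed Scarna3b most closely (Pearson r = 0.943, Spearman rho = 0.937), then B930036N10Rik (r = 0.938), an antisense gene whose fragments cannot be told from those of its partner without strand, and Gm25939 (r = 0.938). Gm25939 followed B930036N10Rik (r = 0.976), Gm23152 of the 5S class (r = 0.959) and Etfa, which encodes a subunit of an electron transfer flavoprotein (r = 0.954). Scarna3b followed Gm25360, Mospd2 (r = 0.889) and Mrgbp (r = 0.888). AF357399 followed Gm25099 (r = 0.934), Rnu11, the U11 RNA of the minor spliceosome (r = 0.925), and Rny3 (r = 0.901). These loci share libraries, depth and size factors, and control library 1 with rapamycin and the third untreated mutant are among the 12 points. Names came from the supplementary files of the study, which include lists built on the untreated TRAP libraries among these points. The RNAs followed here were chosen on the same values. A high r can therefore follow from the choice of loci, and these correlations cannot show a link beyond it.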

How the data were processed

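Values of the 4 loci were read in 12 TRAP and 10 sorted libraries. According to the submitters' processing notes, reads were handled with Trimmomatic 0.39, STAR 2.7.0f and Cufflinks 2.2.1 on GRCm38, and the unit of the values that the authors deposited is a signal: estimated fragment counts divided by 1 size factor per library. The most frequent low value gave the worth of 1 fragment. All values of the 4 loci were whole fragments (tolerance 0.01), but those of other loci were not, so no count model was used. Values were compared as log2(value + 1) with limma 3.58.1 in R 4.3.3, among loci with a mean of at least 2 (TRAP) or 5 (sorted), with an unadjusted p under 0.01 and a fold above 2, and Benjamini-Hochberg adjusted p beside. Each library counts as 1 replicate, and each fit used only the groups compared. The script was checked on simulated data with large shifts and a capped spread. That spread was narrower than that of the 4 RNAs under rapamycin, so the check does not cover those fits. Positions and sequences came from GENCODE, matched by transcript. Named loci were the 4, the lowest and highest of each small RNA class under rapamycin, and the 3 most correlated. Gm25541 and Rps16 were named after their values were seen. The loci, lists and tests were chosen with earlier results of these data known. Alternatives were other scalings, pseudocounts and filters, a trend in eBayes, a replicate block, submission terms and each library left out. Intervals and limits of a count of 0 (3 fragments) cover counting error only.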

Additional observations from a re-analysis of the deposited data

Results flagged for a closer look

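The values of 2 RNAs in the sorted libraries stood apart in their group of 5 mutants. Gm25360 had a normalized value of 3.67 in mutant library 61 and 0 in the other 4, and Scarna3b had 1.45 in mutant library 74 and 0 in the other 4. These are 3 fragments and 1 fragment. In a group with 1 value above 0 and 4 at 0, any fragment count stands apart by construction, so the flag carries no more than the count.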

How the results depend on the processing

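Under rapamycin, the difference for Gm25360 (0.16) and Gm25939 (0.32) turned in sign with values scaled to equal totals (-0.25 and -0.10) and with a pseudocount of 10 (-0.60 and -0.11), and AF357399 turned to 0.23 with a pseudocount of 0.1. With each library left out, it ranged from -2.16 to 1.40 for Gm25360, -1.89 to 1.83 for Gm25939, -3.43 to 0.062 for Scarna3b and -2.33 to 0.55 for AF357399. The number of the 4 RNAs past the thresholds ranged from 0 to 1, and reached 1 without control library 1. Chosen after seeing the data, equal totals without that library gave -2.69, -2.43 and -3.95 for Gm25360, Gm25939 and Scarna3b, with 2 RNAs past the thresholds, while the replicate block without it gave -2.40 for Gm25360 and -1.74 for Gm25939, with 0.

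In controls, rapamycin minus none was below 0 for 0 to 4 RNAs with each library left out, and for 0 under both settings chosen after seeing the data. Without rapamycin, 4 of 4 RNAs were lower in the mutants under every alternative run, but 0 passed the thresholds with equal totals or with all 4 TRAP groups in one fit, and 3 with no filter, with a pseudocount of 10, or without mutant 1 or mutant 2. In sorted PCs, 3 RNAs could be fitted with no filter on low values. AF357399, whose choice had used sorted values, then passed the thresholds (1.10, higher in mutants), on 6 fragments in the mutants.

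Loci past the thresholds under rapamycin (107) numbered 55 with a pseudocount of 0.1, 535 with no filter, 39 with a stricter filter, 435 with all 4 TRAP groups in one fit, 280 with equal totals without control library 1, and 36 to 430 with each library left out. In sorted PCs (242) they numbered 702 with no filter, 33 with submission number as a term, 100 in submission MS3005 only, and 104 to 530 with each library left out. The cause of these shifts was not tested. The labels number TRAP replicates 1 to 3 in each group, but same-numbered libraries did not deviate together (r from -0.04 to 0.04). No pairing by number was seen, though these few correlations cannot exclude one. The replicate block gave 64 loci under rapamycin. It left the 4 differences at their values, as it must with 1 library of each number in each group. No animal number is shared between sorted mutants and sorted controls. Of 441 alternatives computed, 384 were classed as the same. Tested differences had to keep direction and side of the thresholds, described ones to stay within the spread between replicates, and counts to stay near the main count. For rapamycin minus none in controls, that spread included control library 1. All 15 alternatives of each RNA counted as the same there, also those that turned the sign. Fewer than 10 fragments lay behind several TRAP values of AF357399 and Scarna3b, and depth limits these most. The same held for Gm25360 in untreated mutants 1 and 2 (4 and 5 fragments) and for Gm25939 in control library 1 with rapamycin (4 fragments).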
